A study of Mus musculus with 4 samples.

Results

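The 10 genes described here are direct transcriptional targets of p53 in the mouse that lie outside the cell cycle arrest, Bcl2-family, DNA repair and metabolic groups: Ccng1, Phlda3, Trp53inp1, Eda2r, Zmat3, Rps27l, Pstpip2, Aen, Ei24 and Perp. They were chosen by gene symbol and function, with earlier results of these sarcomas known but by a rule that itself uses no measured value, and each symbol was found once among the 56691 genes of the deposited table. All 10 passed the filter on low counts and were among the 17188 genes tested. RNA-seq was performed on 4 sarcomas from W/+ mice of the C57BL/6N background. All 4 mice are heterozygous for a p53 hot-spot mutation that replaces an arginine with a tryptophan, which the sample labels write as p53R282W/+ after the human residue. Sarcomas ATO 1 and ATO 2 came from mice that drank water with arsenic trioxide (ATO, a drug that refolds certain mutant p53 proteins) until death. Sarcomas Ctl 1 and Ctl 2 came from control mice, whose treatment the labels name as PBS. Every cell of these mice carries the mutation from the germline, the sarcomas arose spontaneously, and the type of sarcoma, the age and the sex of each mouse are not given in the sources used here. A cell culture recipe (dexamethasone, isobutylmethylxanthine, insulin) stands in the labels of all 4 samples, although the methods describe tumor tissue. Since nothing beyond the sample names says how the sarcomas of a group are related, the p-values measure only the spread between these samples.

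p53 is a transcription factor that binds DNA as a tetramer and switches on genes after DNA damage and other stress, and missense mutations in its DNA-binding domain weaken this function. Its targets reach well beyond arrest and apoptosis. The genes described here include feedback partners of the p53-Mdm2 circuit, an inhibitor of Akt signalling, an RNA-binding protein and a ribosomal protein. They also include a receptor of the tumor necrosis factor receptor family, a nuclease and a protein of the desmosome, the junction that holds epithelial cells together. In a sarcoma, a tumor of mesenchymal origin, some of them can also be expressed by the immune, muscle or fat cells that the tissue contains.

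A p53 binding site consists of a pair of 10-base units, each with a fixed C and G at its core. Matches to this pattern near the target genes are shown because p53 is known to act on such genes through sequences of this kind. RefSeq promoter windows (GRCm38.p6, 250 bases before to 50 bases after a transcript start) were at hand for 6 of the 10 genes, namely Ccng1, Phlda3, Eda2r, Rps27l, Aen and Ei24. Both strands were searched for the p53 consensus with both units side by side, both cores kept and at most 3 mismatches in 20 bases. The 6 genes had 8 windows, since a gene can have several starts, and such a match was found in 4 of the 8 (windows of 3 genes, with 1 match shared by 2 windows of Aen), against 453 (1.38%) of all 32851 windows of that length. Cdkn1a, the p21 gene and the best-known p53 target, is given for comparison. Capitals mark bases that match the consensus and lower case marks mismatches.
Ccng1: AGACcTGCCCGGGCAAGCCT
Rps27l: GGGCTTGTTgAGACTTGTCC
Aen: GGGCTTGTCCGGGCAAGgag
Cdkn1a: GAACATGTCTtGACATGTTC
The Ccng1 match (chr11:40755462-40755481, minus strand) lay 151 bases before the gene and had 1 mismatch. The Rps27l match (chr9:66946296-66946315, plus strand) also had 1 mismatch and lay in the gene, 210 bases from its start and in no annotated exon, thus in an intron. The Aen match (chr7:78895937-78895956, plus strand) had 3 mismatches and lay 83 bases from the gene start, in a non-coding exon of 4 annotated transcripts. The Cdkn1a match (chr17:29090928-29090947, plus strand) had 1 mismatch and lay 29 bases before the gene. Another Cdkn1a window (chr17:29093519-29093818) held no match with at most 3 mismatches. Matches with at most 1 mismatch were present in 22 (0.067%) of all windows. A single 10-base unit with no mismatch was present in 5 of the 8 windows (of Ccng1, Rps27l, Aen and Ei24) and in 2745 (8.36%) of all windows. The windows of Phlda3 and Eda2r held neither a match with at most 3 mismatches nor such a unit. A match is a description of the letters and not a measured binding site.

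Among the genes with such a match Ccng1 had the largest estimated difference, so the 225 bases in front of it (GRCm38.p6, chr11:40755312-40755536, minus strand) are printed with the p53 match in capitals.
Ccng1 upstream: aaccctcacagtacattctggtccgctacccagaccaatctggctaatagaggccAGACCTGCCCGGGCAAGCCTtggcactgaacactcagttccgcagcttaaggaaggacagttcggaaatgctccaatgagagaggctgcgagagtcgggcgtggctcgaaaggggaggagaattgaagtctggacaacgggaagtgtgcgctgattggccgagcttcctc

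Rps27l encodes a ribosomal protein that is closely related to Rps27, and reads of such paralogs can be confused. Their coding sequences (GENCODE M21, transcripts Rps27l-201 and Rps27-201, both 255 bases) are therefore printed with the bases that differ in capitals.
Rps27l: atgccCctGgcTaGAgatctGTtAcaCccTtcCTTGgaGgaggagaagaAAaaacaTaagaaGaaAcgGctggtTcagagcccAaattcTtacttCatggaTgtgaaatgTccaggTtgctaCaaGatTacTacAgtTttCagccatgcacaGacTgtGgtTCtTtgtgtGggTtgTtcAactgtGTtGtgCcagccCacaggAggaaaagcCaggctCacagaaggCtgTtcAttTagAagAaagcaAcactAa
Rps27: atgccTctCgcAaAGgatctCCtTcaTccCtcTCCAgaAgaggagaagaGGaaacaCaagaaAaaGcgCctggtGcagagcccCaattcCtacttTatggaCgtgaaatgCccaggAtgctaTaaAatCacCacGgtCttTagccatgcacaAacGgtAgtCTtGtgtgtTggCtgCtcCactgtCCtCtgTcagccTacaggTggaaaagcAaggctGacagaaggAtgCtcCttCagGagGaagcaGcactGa
The pair differed at 61 of 255 bases (76.1% identity), and no annotated transcript of the pair shared a run of more than 11 bases. Rps27 and its copy Rps27rt were identical over all 255 coding bases and shared a run of 341 bases, within which reads of Rps27 and Rps27rt cannot be told apart.

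The libraries held between 15259695 (ATO 2) and 18134000 (ATO 1) counted reads, so a count of 0 allows a level of up to 3 counts, or 0.165 to 0.197 CPM (counts scaled to the library total). Such a limit covers counting error only. The share of mitochondrial genes was 14.7% in ATO 2 and 1.98% to 2.59% elsewhere, and the 10 most abundant genes took 17.7% in ATO 2 and 5.43% to 9.67% in the others. Levels are given as the deposited FPKM (counted reads scaled to the exon length of the gene and to the total of the sarcoma), and differences were tested on counts with edgeR after TMM scaling, which corrects the totals for a few dominant genes. The mesenchymal genes were present in every sarcoma, with 8 of 8 tested and a summed FPKM of 1327 to 5390. Cell type markers differed widely between the sarcomas. The 8 skeletal muscle genes summed to 6.52 and 119 FPKM in Ctl 1 and Ctl 2 and to 13590 and 978.5 FPKM in ATO 1 and ATO 2. The 5 adipocyte genes summed to 12.7, 66.2, 229 and 1369 FPKM in the same order, and Fabp4 made up most of each sum. Without Fabp4, a sum made after the values were seen, the other 4 came to 0.11, 0.12, 73.9 and 559.4 FPKM. All 8 muscle genes and all 5 adipocyte genes were higher in both ATO sarcomas than in both Ctl sarcomas, against 19.7% of all genes. In DESeq2, a second count test, 7 and 5 of them passed the threshold, against 3.26% of 18277 genes called higher. In edgeR 0 passed, and 7 and 5 had an unadjusted p under 0.05, against 5.44% of all genes in that direction. Lep had 0 counts in both Ctl sarcomas, and Plin1 and Tnnc2 had 0 counts in Ctl 1. In a bulk sample, fewer cells of a type and less RNA per cell cannot be told apart.

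The comparison of ATO with Ctl sarcomas asks whether the drug given to the mouse is accompanied by higher p53 target expression in the tumor. Ccng1 and Phlda3 were several-fold higher in both ATO sarcomas than in both Ctl sarcomas, with log2 fold changes of 2.42 (SE 0.46) and 2.75 (SE 0.46). Rps27l, Ei24 and Pstpip2 were also higher in both ATO sarcomas, by a smaller margin. Trp53inp1, Eda2r, Zmat3 and Perp overlapped between the groups, and Aen did or did not depending on the scale.

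By edgeR, 0 of the 10 genes passed an adjusted p of 0.05 (Benjamini-Hochberg over 17188 genes), as did 0 (percent called 0) of all genes. At an unadjusted p under 0.05, 2 of the 10 (Ccng1 and Phlda3, both higher) passed, against 5.44% of all genes tested that passed in that direction, and 1463 genes passed in either direction. DESeq2 called the same pair at an adjusted p of 0.05, both higher, where it called 3.26% of 18277 genes higher. The edgeR test without a filter on low counts called 1 of the 10 (Phlda3), where it called 1.47% of 30859 genes higher. A higher fitted level in ATO was found for 9 of the 10 genes, against 49.2% of all genes tested, and Perp was the exception. Both ATO sarcomas were above both Ctl sarcomas on the TMM-scaled CPM for 6 of the 10 (Ccng1, Phlda3, Rps27l, Pstpip2, Aen and Ei24), against 19.7% of all genes, and for 5 on the FPKM scale (without Aen), against 12.8% of all genes. The gap between the lowest ATO and the highest Ctl sarcoma was at least 2-fold for 2 of the 10 (Ccng1 and Phlda3), against 5.00% of all genes. The reverse, both ATO below both Ctl sarcomas, held for 0 of the 10, against 20.2% of all genes. The median log2 fold change was 1.2 for the 10 genes and -0.02 for all genes tested. With 2 against 2 sarcomas, an exact permutation test of a single gene cannot go below p = 0.333, so none was used.

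**Figure D1:**
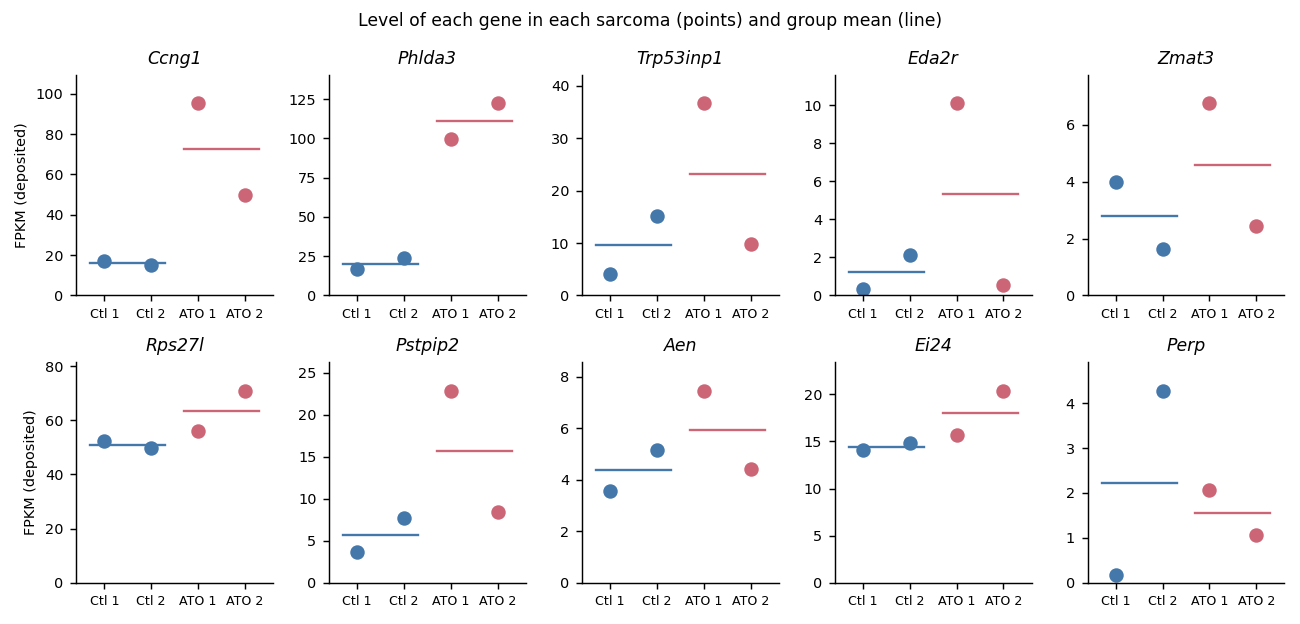
FPKM (y axis, separate scale from 0 in each panel) of the 10 genes in the 4 sarcomas (x axis, blue Ctl, red ATO), with a point for each sarcoma and a line at the group mean. Both red points lie above both blue points for Ccng1, Phlda3, Rps27l, Pstpip2 and Ei24, whereas the ATO mean of Trp53inp1, Eda2r and Zmat3 is carried by ATO 1.

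Cyclin G1 (Ccng1, ENSMUSG00000020326, GRCm38 chromosome 11, 40748552 to 40755311, minus strand) is an atypical cyclin that brings the phosphatase PP2A to Mdm2 and takes part in the feedback on p53. The FPKM in Ctl 1 and Ctl 2 was 16.9 and 15.1, and in ATO 1 and ATO 2 it was 95.3 and 50.04. The Ctl sarcomas were nearly equal, and both ATO sarcomas were well above them, with ATO 1 the highest. On the TMM-scaled CPM the means were 51.3 ± 4.54 in Ctl and 274 ± 83.7 in ATO (SD, 2 sarcomas per group), and the lower ATO sarcoma was 3.94-fold above the higher Ctl sarcoma. The edgeR log2 fold change of Ccng1 was 2.42 (95% interval 1.199 to 3.63), with an unadjusted edgeR p of 0.00414 and an edgeR adjusted p of 0.570. The DESeq2 adjusted p was 0.00445, and the edgeR adjusted p without a filter was 0.0544. Among all genes tested, Ccng1 stood at the 78.4 and 81.4 percentile of FPKM in the Ctl sarcomas and at the 95 and 97.9 percentile in the ATO sarcomas. Its close relative Ccng2, which encodes cyclin G2, had 16.6 and 18.97 FPKM in Ctl and 13.2 and 12.6 FPKM in ATO, with a log2 fold change of -0.19 (SE 0.36).

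Phlda3 (ENSMUSG00000041801, chromosome 1, 135766119 to 135769136, plus strand) encodes a small pleckstrin homology protein that competes with Akt for membrane lipids and so restrains Akt. Ctl 1 and Ctl 2 had 16.9 and 23.6 FPKM, and ATO 1 and ATO 2 had 99.4 and 122 FPKM. Phlda3 was the gene of the 10 with the largest estimated difference, and ATO 2 rather than ATO 1 was the highest sarcoma. The TMM-scaled CPM was 28.7 ± 6.48 in Ctl and 194 ± 55.7 in ATO (SD, 2 sarcomas per group), a 6.75-fold difference of the means. Phlda3 had an edgeR log2 fold change of 2.75 (95% interval 1.54 to 3.97), with an unadjusted edgeR p of 0.00239. The adjusted p was 0.570 in edgeR, 0.0234 in edgeR without a filter and 0.000846 in DESeq2. Phlda3 stood at the 98.0 and 98.1 percentile of FPKM in the ATO sarcomas and at the 81.3 and 86.4 percentile in the Ctl sarcomas. The related Phlda1 had 8.83 and 7.80 FPKM in Ctl and 3.98 and 6.06 FPKM in ATO (log2 fold change -0.42, SE 0.54), and Phlda2 was too low to be tested.

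These 2 genes had the 2 smallest edgeR p-values of the 10, and the markers of muscle and fat given above were higher in the same 2 sarcomas. The part of those cell types in the levels of Ccng1 and Phlda3 was not tested. The muscle sum was higher in ATO 1, as Ccng1 was, and the adipocyte sum was higher in ATO 2, as Phlda3 was. The desmosome and epithelial, mesenchymal, osteoblast, erythroid and proliferation sums were also higher in ATO 1, and the myeloid and endothelial sums in ATO 2. Without Jup, the desmosome and epithelial sum was higher in ATO 2 (6.01 FPKM in ATO 1 and 23.1 FPKM in ATO 2). In Ctl 1 and Ctl 2 the muscle sum was 6.52 and 119 FPKM and Ccng1 was 16.9 and 15.1 FPKM. The adipocyte sum there was 12.7 and 66.2 FPKM (0.11 and 0.12 FPKM without Fabp4) and Phlda3 was 16.9 and 23.6 FPKM. With each sarcoma left out in turn, the log2 fold change was between 2.05 and 2.70 for Ccng1 and between 2.43 and 3.01 for Phlda3.

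**Figure D2:**
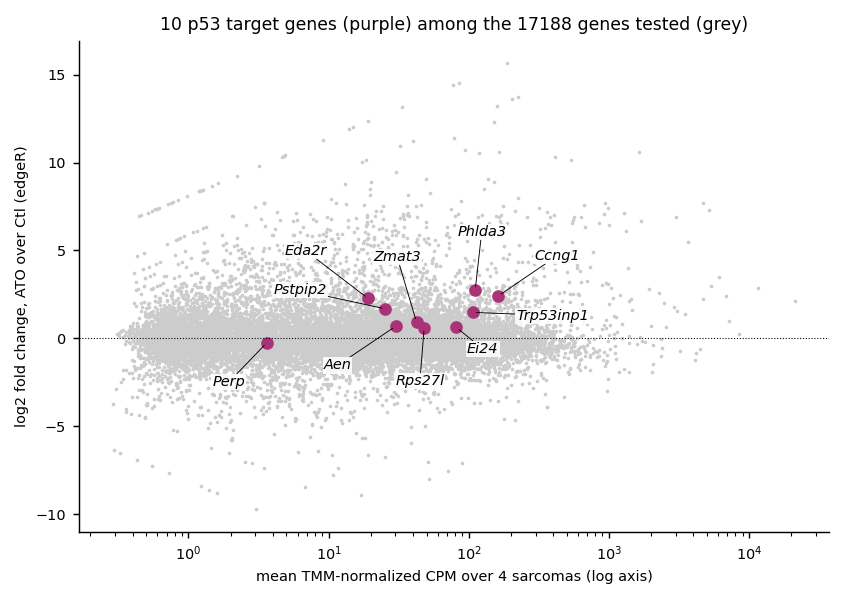
Log2 fold change of ATO over Ctl (y axis, edgeR) against the mean TMM-scaled CPM over the 4 sarcomas (x axis, log scale) for the 17188 genes tested (grey), with the 10 genes in purple and named. Phlda3, Ccng1 and Eda2r lie above 2 on the y axis and Perp, the lowest in mean level, lies just below 0, while many other genes of similar level lie further from 0.

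Trp53inp1 (ENSMUSG00000028211, chromosome 4, 11156431 to 11174379, plus strand) encodes a stress protein that binds p53 partners in the nucleus and takes part in autophagy in the cytoplasm. In Ctl 1 and Ctl 2 the level was 4.03 and 15.2 FPKM, and in ATO 1 and ATO 2 it was 36.7 and 9.82 FPKM. Only ATO 1 lay above both Ctl sarcomas, and ATO 2 lay between them, so the groups overlapped. Trp53inp1 had a log2 fold change of 1.48 (SE 0.88, 95% interval -0.83 to 3.79, edgeR adjusted p = 0.681). The value was 0.45 without ATO 1, 0.82 without Ctl 1, 2.08 without ATO 2 and 2.71 without Ctl 2. Its relative Trp53inp2, also an autophagy protein, had 28.1 and 17.7 FPKM in Ctl and 31.1 and 64.3 FPKM in ATO (log2 fold change 1.39, SE 0.64, edgeR adjusted p = 0.613). ATO 1, the sarcoma with the highest Trp53inp1, also had the highest summed muscle markers, and their part in the level of Trp53inp1 was not tested.

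Zmat3 (ENSMUSG00000027663, chromosome 3, 32334792 to 32366014, minus strand) encodes a zinc finger protein that binds RNA and takes part in splicing and transcript stability. Its level was 3.97 and 1.63 FPKM in Ctl 1 and Ctl 2 and 6.75 and 2.44 FPKM in ATO 1 and ATO 2. ATO 2 was below Ctl 1, so the groups overlapped, and Zmat3 was one of 3 genes that were lowest in Ctl 2. For Zmat3 the log2 fold change came to 0.92 (SE 0.67, 95% interval -0.84 to 2.68, edgeR adjusted p = 0.732). It was 0.20 without ATO 1, 0.41 without Ctl 2, 1.39 without ATO 2 and 1.71 without Ctl 1. The related zinc finger gene Zmat1 had a log2 fold change of 0.15, and Zmat4 was too low to be tested.

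Ei24 (ENSMUSG00000062762, chromosome 9, 36779159 to 36797393, minus strand) encodes a membrane protein of the endoplasmic reticulum with roles in autophagy and cell death. The FPKM in Ctl 1 and Ctl 2 was 14.1 and 14.8, and in ATO 1 and ATO 2 it was 15.6 and 20.4. Both ATO sarcomas were above both Ctl sarcomas, although ATO 1 exceeded Ctl 2 by little (1.16-fold on the TMM-scaled CPM). The means were 64.2 ± 1.51 CPM in Ctl and 98.6 ± 32.2 CPM in ATO (SD, 2 sarcomas per group), and the log2 fold change of Ei24 was 0.62 (SE 0.41, 95% interval -0.46 to 1.70, edgeR adjusted p = 0.705). Without ATO 2, the sarcoma with the high mitochondrial share, the log2 fold change was 0.25. Gm26787, a gene on the opposite strand that overlaps Ei24, had between 0 and 4 counts, while Ei24 had at least 1200 counts in every sarcoma.

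Eda2r (ENSMUSG00000034457, X chromosome, 97333840 to 97377216, minus strand) encodes a receptor of the tumor necrosis factor receptor family for the A2 form of ectodysplasin. Ctl 1 and Ctl 2 had 0.35 and 2.11 FPKM, and ATO 1 and ATO 2 had 10.1 and 0.56 FPKM. Eda2r was high in ATO 1 alone, 14.8-fold above ATO 2 on the TMM-scaled CPM, and the Ctl sarcomas also differed by 5.93-fold. The log2 fold change of Eda2r was 2.27 with an SE of 1.499 (95% interval -1.66 to 6.20, edgeR adjusted p = 0.704). It turned to -0.72 without ATO 1 and was 4.05 without Ctl 2 and 1.49 without Ctl 1. The ligand gene Eda had 0.77 and 0.11 FPKM in Ctl and 0.80 and 1.07 FPKM in ATO (log2 fold change 1.37, SE 1.07), and Edar, the receptor for the A1 form, was too low to be tested. The 8 muscle markers were 13590 FPKM in ATO 1 and 978.5 FPKM or less elsewhere, and their part in the level of Eda2r was not tested.

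Aen (ENSMUSG00000030609, chromosome 7, 78895854 to 78911209, plus strand) encodes an exonuclease that promotes apoptosis. In Ctl 1 and Ctl 2 the level was 3.55 and 5.17 FPKM, and in ATO 1 and ATO 2 it was 7.46 and 4.43 FPKM. On this scale ATO 2 lay between the Ctl sarcomas, whereas on the TMM-scaled CPM it was 31.4 against 27.2 in Ctl 2, so that both ATO sarcomas were above both Ctl sarcomas. Aen had an edgeR log2 fold change of 0.69 (SE 0.44, 95% interval -0.45 to 1.84, edgeR adjusted p = 0.695). It was 0.43 without ATO 1 and 0.46 without Ctl 1. The related nuclease genes Isg20 and Isg20l2 had log2 fold changes of -0.47 and -0.73.

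Perp (ENSMUSG00000019851, chromosome 10, 18845020 to 18857073, plus strand) encodes a tetraspan protein of the desmosome and is a target of both p53 and its relative p63. Its level was 0.18 and 4.28 FPKM in Ctl 1 and Ctl 2 and 2.06 and 1.07 FPKM in ATO 1 and ATO 2. Perp was the only gene of the 10 that was highest in a Ctl sarcoma, and the Ctl sarcomas, with 6 and 150 counts, differed by 23.95-fold on the TMM-scaled CPM, more than any ATO and Ctl sarcoma differed for the other 9 genes except Eda2r. The log2 fold change of Perp was -0.26 with an SE of 1.42 (95% interval -3.98 to 3.47, edgeR adjusted p = 0.972), and its sign depended on the sarcomas used. It was 3.35 without Ctl 2, 0.04 without ATO 2, -0.63 without ATO 1 and -1.20 without Ctl 1. The 12 desmosome and epithelial genes summed to 7.76 and 65.3 FPKM in Ctl 1 and Ctl 2 and to 36.3 and 29.8 FPKM in ATO 1 and ATO 2, and 3, 0, 2 and 0 of them had 0 counts (Krt5, Krt8 and Krt14 in Ctl 1, Krt5 and Dsc2 in ATO 1). Of the 8 that could be tested, 6 were higher and 2 lower in ATO, with 0 past the adjusted threshold in edgeR and 0 at an unadjusted p under 0.05. Both ATO sarcomas were above both Ctl sarcomas for 1 of the 8, against 19.7% of all genes. Most of the sum in both Ctl sarcomas and in ATO 1 was Jup, which is also expressed outside epithelia (6.5 and 55.3 FPKM in Ctl, 30.2 and 6.75 FPKM in ATO). The sum over all 12 genes and Jup alone were highest in Ctl 2, as Perp was, whereas the other 11 genes, summed after the values were seen, came to 1.26 and 9.94 FPKM in Ctl and 6.01 and 23.1 FPKM in ATO and were highest in ATO 2. Krt5 and Krt14 were at or below 1.42 FPKM in every sarcoma. Their part in the level of Perp was not tested.

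**Figure D3:**
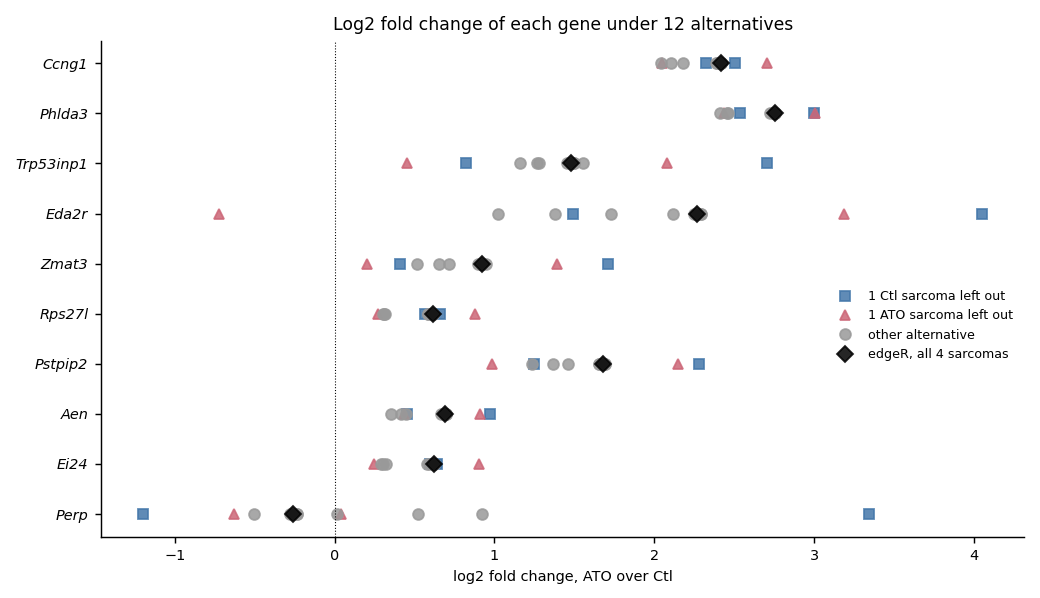
Log2 fold change of ATO over Ctl (x axis) for each of the 10 genes (y axis) with edgeR on all 4 sarcomas (black diamonds), with 1 Ctl sarcoma (blue squares) or 1 ATO sarcoma (red triangles) left out, and with the other alternatives of test, scaling, filter, block and unit (grey circles). Ccng1 and Phlda3 stay above 2 throughout, Eda2r spans -0.72 to 4.05 and Perp -1.20 to 3.35, and the dotted line marks no difference.

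Rps27l (ENSMUSG00000036781, chromosome 9, 66946086 to 66949516, plus strand) is the p53-responsive relative of the ribosomal protein gene Rps27. The FPKM in Ctl 1 and Ctl 2 was 52.4 and 49.7, and in ATO 1 and ATO 2 it was 56.2 and 70.9. Both ATO sarcomas were above both Ctl sarcomas, by 1.16-fold at the closest on the TMM-scaled CPM. The means were 38.0 ± 1.77 CPM in Ctl and 58.2 ± 17.8 CPM in ATO (SD, 2 sarcomas per group), and the log2 fold change of Rps27l was 0.615 (SE 0.41, 95% interval -0.46 to 1.69, edgeR adjusted p = 0.706). Without ATO 2 it was 0.27. Rps27 itself had 138 and 88.6 FPKM in Ctl and 111 and 85.5 FPKM in ATO, with a log2 fold change of 0.05 (SE 0.42), and Rps27rt had a log2 fold change of -0.02. On the TMM-scaled CPM, Rps27 had 132 and 83.7 in Ctl and 115 and 109 in ATO. On that scale both genes were lowest in Ctl 2, Rps27l was highest in ATO 2 and Rps27 in Ctl 1, whereas on the FPKM scale Rps27 was lowest in ATO 2. The pair has no shared run above 11 bases in the sequences printed above.

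Pstpip2 (ENSMUSG00000025429, chromosome 18, 77789914 to 77882879, plus strand) encodes an F-BAR protein that shapes membranes and bundles actin, and it is known from macrophages, where its loss causes autoinflammatory disease of bone. Ctl 1 and Ctl 2 had 3.69 and 7.68 FPKM, and ATO 1 and ATO 2 had 22.9 and 8.46 FPKM. Both ATO sarcomas were above both Ctl sarcomas, with ATO 2 close to Ctl 2 (1.49-fold on the TMM-scaled CPM) and ATO 1 far above the rest. The CPM means were 12.1 ± 5.89 in Ctl and 38.7 ± 20.6 in ATO (SD, 2 sarcomas per group). The log2 fold change of Pstpip2 was 1.68 (SE 0.64, 95% interval -0.01 to 3.36), with an unadjusted edgeR p of 0.0508, an edgeR adjusted p of 0.585 and a DESeq2 adjusted p of 0.289. It was 0.99 without ATO 1. The 8 myeloid genes summed to 1828, 931.5, 871.7 and 5556 FPKM in Ctl 1, Ctl 2, ATO 1 and ATO 2, and Lyz2 made up most of each sum. Without Lyz2, a sum made after the values were seen, the other 7 came to 331, 233, 277 and 441 FPKM, and their part in the level of Pstpip2 was not tested. Of these 8 genes, 6 were higher and 2 lower in ATO (median log2 fold change 0.75), and 0 passed in edgeR or at an unadjusted p under 0.05. The related Pstpip1 had 13.2 and 14.1 FPKM in Ctl and 13.4 and 15.3 FPKM in ATO (log2 fold change 0.36, SE 0.38). The overlapping gene F830208F22Rik on the opposite strand had 8 to 34 counts against 151 to 970 for Pstpip2 (how strand was used in counting is not given).

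Compared per length, the order of the genes differed between the groups. Rps27l was the highest of the 10 in both Ctl sarcomas (49.7 and 52.4 FPKM), followed by Ccng1 (15.1 and 16.9), Phlda3 (16.9 and 23.6), Ei24 (14.1 and 14.8) and Trp53inp1 (4.03 and 15.2), whose ranges lie side by side or overlap. In both ATO sarcomas Phlda3 was the highest (99.4 and 122 FPKM), and the ranges of Ccng1 (50.04 and 95.3) and Rps27l (56.2 and 70.9) overlapped. Eda2r and Perp were at or under 4.28 FPKM in every sarcoma except for Eda2r in ATO 1. The median FPKM of the 10 genes was 4.0 and 11.2 in Ctl 1 and Ctl 2, and 19.3 and 9.14 in ATO 1 and ATO 2.

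The 10 genes did not move as a block across the 4 sarcomas. ATO 1 was the highest sarcoma on the TMM-scaled CPM for 6 of them (Ccng1, Trp53inp1, Eda2r, Zmat3, Pstpip2 and Aen), ATO 2 for 3 (Phlda3, Rps27l and Ei24) and Ctl 2 for 1 (Perp). Ctl 1 was the lowest for 7 and Ctl 2 for 3 (Ccng1, Zmat3 and Rps27l), and no ATO sarcoma was the lowest for any of them. Of the 4 possible pairs of an ATO and a Ctl sarcoma, which share their sarcomas, ATO 1 over Ctl 1 had 10 of 10 genes higher, with a median log2 ratio of 2.26 (CPM + 1). ATO 2 over Ctl 2 had 7 of 10 higher, with a median of 0.715. The other pairs had 9 of 10 higher each, with medians of 1.53 (ATO 1 over Ctl 2) and 1.19 (ATO 2 over Ctl 1). Over all genes tested these medians were between -0.04 and 0.02. The Ctl sarcomas differed from each other as well, since 7 of the 10 genes were higher in Ctl 2 than in Ctl 1.

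The comparison was extended to 32 other p53 targets, among them the arrest, apoptosis, repair and metabolic genes, of which all 32 were tested. By edgeR 0 passed the adjusted threshold, and 3 passed an unadjusted p of 0.05, all higher in ATO (against 5.44% of all genes). These were Cdkn1a, which halts the cell cycle (5.61 and 17.9 FPKM in Ctl, 75.8 and 49.4 FPKM in ATO, log2 fold change 2.67, SE 0.70), Fas, a death receptor (log2 fold change 1.895, SE 0.53), and Tigar, a regulator of glycolysis (log2 fold change 1.72, SE 0.57). DESeq2 called only Cdkn1a of the 32 (DESeq2 adjusted p = 0.0193), where it called 3.26% of 18277 genes higher. Of the 32 genes, 22 had a higher and 10 a lower fitted level in ATO (49.2% of all genes were higher), with a median log2 fold change of 0.26. The split was 16 higher of 32 with total counts in place of TMM, and 15 with limma on log2(FPKM + 0.1). With a sarcoma left out, it was 17 (ATO 1), 18 (ATO 2), 19 (Ctl 1) and 22 (Ctl 2). The split thus depended on the scaling and on single sarcomas. On the TMM-scaled CPM, both ATO sarcomas were above both Ctl sarcomas for 8 (Cdkn1a, Mdm2, Pmaip1, Fas, Sesn1, Rrm2b, Tigar and Gadd45a). Both were below both Ctl sarcomas for 4 (Sesn2, Ddb2, Apaf1 and Bloc1s2). The shares of all genes were 19.7% and 20.2%. On the FPKM scale only Cdkn1a, Fas and Tigar were above, where 12.8% of all genes were. Sesn2, Ddb2, Plk2, Plk3, Apaf1 and Bloc1s2 were below on that scale, for which the share of all genes was not computed. Mdm2, the ubiquitin ligase that degrades p53, was at 0.85 on the log2 scale (SE 0.49, adjusted p = 0.673 in edgeR), and Bax, the apoptosis effector, at 0.04. The lowest estimates were those of Pgf (-3.10) and Plk2 (-1.69). The difference between the 10 genes and these 32 was not tested, since both lists were drawn up with results of these sarcomas known.

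**Figure D4:**
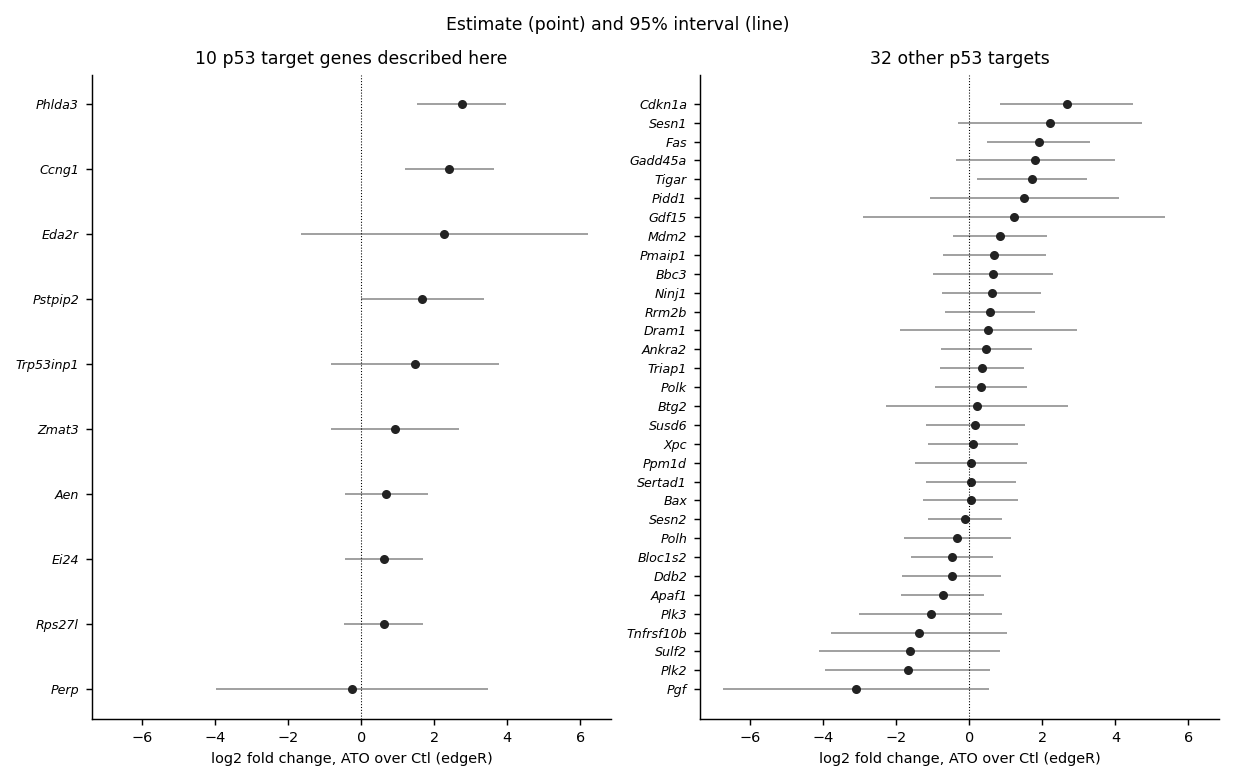
Log2 fold change of ATO over Ctl (x axis, edgeR) for the 10 genes described here (left) and the 32 other p53 targets (right), with points for the estimates and lines for the 95% intervals. The intervals of Phlda3 and Ccng1 on the left and of Cdkn1a, Fas and Tigar on the right lie above 0, and the others include 0.

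Trp53, the gene of p53 itself, had 43.6 and 44.6 FPKM in Ctl and 13.7 and 11.6 FPKM in ATO. The ATO sarcomas were both below the Ctl sarcomas, and the log2 fold change was estimated at -1.53 (SE 0.37, adjusted p = 0.570 in edgeR and 0.110 in DESeq2). These counts do not separate the mutant from the wild-type allele. Trp63, the gene of the p53 relative p63 that also acts on Perp, had 2 and 5 counts in Ctl and 422 and 19 counts in ATO. The estimate for Trp63 was 6.05 on the log2 scale (SE 1.67, adjusted p = 0.570 in edgeR, DESeq2 adjusted p = 0.000778), and Perp was higher in ATO 1 than in ATO 2 but highest in Ctl 2, where Trp63 had 5 counts. Of the 16 relatives and partners of the 10 genes, 12 were tested, with 6 higher and 6 lower in ATO and a median log2 fold change of 0.02. By edgeR 0 of the 12 passed the adjusted threshold. Trp53 and Trp63 were the 2 with an unadjusted p under 0.05, against 1463 of all 17188 genes in either direction. DESeq2 called 1, Trp63, where it called 3.26% of 18277 genes higher.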

How the data were processed

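RNA-seq of 4 sarcomas (2 ATO, 2 Ctl) was analysed, grouped by the labelled treatment. The authors checked reads with FastQC 0.10.1, trimmed them with cutadapt 1.9.1, aligned them with HISAT2 2.0.1 (versions from the submitters' processing notes) and counted them per gene with HTSeq, and they deposited the raw count of each gene without normalization. The deposited FPKM of the authors equals count over gene size and total count to within 0.005. Strand setting and treatment of multiply aligned reads are not given in the sources used here. The labels name TRIzol and a SMARTER kit, the methods a spin column and a TruSeq kit. The methods name GRCm38, but of 52073 genes shared with GENCODE M21 (GRCm38) only 1472 had the same position in the table, so positions are given from M21 by identifier. No symbol was given for 2639 genes. Columns mapped to no sample numbered 0.

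Counts were tested two-sided by the quasi-likelihood F-test of edgeR 4.0.16 (R 4.3.3, filterByExpr, trended dispersion, not robust). The TMM factors were 1.09 and 1.11 in Ctl and 1.01 and 0.822 in ATO. P-values were adjusted by Benjamini-Hochberg over 17188 genes at a threshold of 0.05. Alternatives were DESeq2 1.42.0, its size factors, total counts alone, no filter, leaving out mitochondrial genes or each sarcoma in turn, the replicate number as a block, and limma 3.58.1 on log2(FPKM + 1) and log2(FPKM + 0.1). Python 3.11.15, numpy 2.4.6, pandas 2.3.3 and matplotlib 3.10.9 were used for summaries and figures. The code was tested on simulated counts. Promoter windows came from RefSeq (GRCm38.p6), and coding sequences from GENCODE M21. The genes named are the 10 targets, the genes of the 11 lists (other p53 targets, relatives and partners, desmosome and epithelial, myeloid, skeletal muscle, adipocyte, mesenchymal, endothelial, osteoblast, erythroid and proliferation) and genes that overlap a target or copy Rps27. The members and lists were chosen with earlier results of these data known.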

Additional observations from a re-analysis of the deposited data

How the results depend on the processing

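The biological coefficient of variation was 62.5%, and 2 sarcomas per group limit every estimate. With DESeq2, 754 genes passed the threshold in place of 0, among them 2 of the 10 genes (Ccng1 and Phlda3) and 1 of the other p53 targets. Without a filter on low counts, 541 genes passed, among them 1 of the 10 (Phlda3) and 1 of the other p53 targets. The cause was not tested. With a sarcoma left out, 0 genes passed, and the median log2 fold change of the 10 genes ranged from 0.665 (without ATO 1) to 2.30 (without Ctl 2). Eda2r ranged from -0.72 to 4.05 and turned negative without ATO 1. Perp ranged from -1.20 to 3.35 and was positive without Ctl 2 (3.35) and without ATO 2 (0.04), with limma on log2(FPKM + 1) (0.012) and on log2(FPKM + 0.1) (0.52), and under the replicate block (0.92). With total counts alone the median of all genes was -0.28, that of the 10 genes 0.997, and Rps27l and Ei24 were each at 0.32. The other 8 genes kept one direction in all 12 alternatives.

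No label says that same-numbered sarcomas of the groups share anything beyond the number (correlation of their deviations 5.04e-05). With the number as a replicate block 0 genes passed, 1165 had an unadjusted p under 0.05 in place of 1463, and the median of the 10 genes was 1.25.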

Other observations

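Other marker lists also varied between the sarcomas. The 5 osteoblast genes summed to 12.7, 5.13, 464.9 and 4.69 FPKM in Ctl 1, Ctl 2, ATO 1 and ATO 2, so the sum was high in ATO 1 alone. ATO 1 was also the sarcoma in which 6 of the 10 genes (Ccng1, Trp53inp1, Eda2r, Zmat3, Pstpip2 and Aen) were highest. DESeq2 called 3 of the 5 osteoblast genes higher, against 3.26% of 18277 genes. By edgeR 0 of the 5 passed, and 2 were higher at an unadjusted p under 0.05, against 5.44% of all genes in that direction. The 6 proliferation genes summed to 89.6, 60.3, 91.6 and 7.77 FPKM in the same order, with ATO 2 the lowest, and 5 of 6 had a lower estimate in ATO. The exception was Mki67 (16.3 and 11.9 FPKM in Ctl, 45.4 and 1.96 FPKM in ATO, log2 fold change 0.89, SE 1.29). Without Mki67, a sum made after the values were seen, the other 5 came to 73.2, 48.4, 46.2 and 5.81 FPKM. On the TMM-scaled CPM, both ATO sarcomas were below both Ctl sarcomas for 3 of the 6 (Cdk1, Aurkb and Bub1), against 20.2% of all genes. The 5 endothelial genes summed to 102, 935.3, 74.2 and 150.5 FPKM and the 4 erythroid genes to 278, 18530, 10070 and 1045 FPKM, and all of these 9 genes had a lower estimate in ATO. Of the 8 mesenchymal genes 6 were lower and 2 higher (median -1.22 on the log2 scale). In the proliferation, endothelial, erythroid and mesenchymal lists 0 genes passed in edgeR and 0 had an unadjusted p under 0.05. The part of these cell types in the levels of the p53 targets was not tested.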
